A study of Mus musculus with 2 samples.

Results

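The genes described here encode the kinases, adaptors, exchange factors, lipid enzymes and NFAT transcription factors that act just downstream of antigen receptors and of the activating receptors of natural killer (NK) cells. A list of 38 such genes was followed on a pair of Affymetrix mouse expression arrays, and 36 of them had a probe set annotated to that gene alone, out of 18193 genes with such a probe set. Where a gene had several, the one with the highest average log2 intensity stood for it. Lck and Lyn, a pair of Src family kinases, had no such probe set in the annotation used and are not analysed here.

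The study compared liver NK cells bound or not bound by DX5, an antibody to integrin alpha 2. Both populations came from untreated wild-type mice of the B6 strain and were sorted by flow cytometry as NK1.1+ cells without surface CD3. One was DX5- and the other DX5+, with 1 array for each (n = 1 per group). The labels do not state age, sex, number of animals or any pooling of animals.

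With a single array per population no difference can be set against a spread between samples, so none was tested; every fold below describes these 2 arrays. The values are MAS5 intensities in linear units, and the processing notes give no settings, such as how each array was scaled. A gene counted as detected above 76.05 units in the DX5- sample and 80.1 in the DX5+ sample, the 95th percentile of 150 probe sets for olfactory and similar genes with little expected use in these cells. Within genes, the log2 ratio differed between probe sets with an SD of 0.34 (4411 genes), which covers probe noise only. All 18 spike-in control probe sets read lower for DX5- cells (median log2 ratio -0.22). Bulk intensities cannot tell fewer cells of a type from less RNA per cell.

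Signalling from these receptors starts when Src family kinases phosphorylate the tyrosine motifs (ITAMs) of receptor chains. ZAP-70 or Syk then docks on the chain and phosphorylates the adaptors LAT and SLP-76, on which phospholipase C-gamma, Vav and Ras activators assemble. The lipid and calcium messengers made there switch on Ras, protein kinase C theta, the Bcl10-Malt1 complex and, through calcineurin, NFAT. T cells rely mainly on ZAP-70, B cells and myeloid cells mainly on Syk, and NK cells carry both.

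All 36 genes were above the limit on both arrays. In DX5- cells 7 of the 36 (19.4%) read at least 2-fold higher: Plcg1, Camk4, Vav3, Dgka, Zap70, Lat and Lcp2. Only Sos1 of the 36 (2.78%) read at least 2-fold lower, and the other 28 were within 2-fold, 21 of them within 1.5-fold. Among all 9407 genes above the limit on both arrays, 3.73% were past 2-fold on the higher side and 5.13% on the lower side. The median log2 ratio of the 36 genes, DX5- over DX5+, was 0.11 and ran from -1.01 to 2.28, beside a median of -0.01 over those 9407 genes. Counted by sign, 20 of the 36 ratios lay above 0 and 16 below, beside 48.9% above 0 among those 9407 genes. With spike-in scaling, which raised the ratios of all genes, the count above 0 was 25. By sign the list was thus divided much as all genes were, with the longer tail on the higher side.

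**Figure D1:**
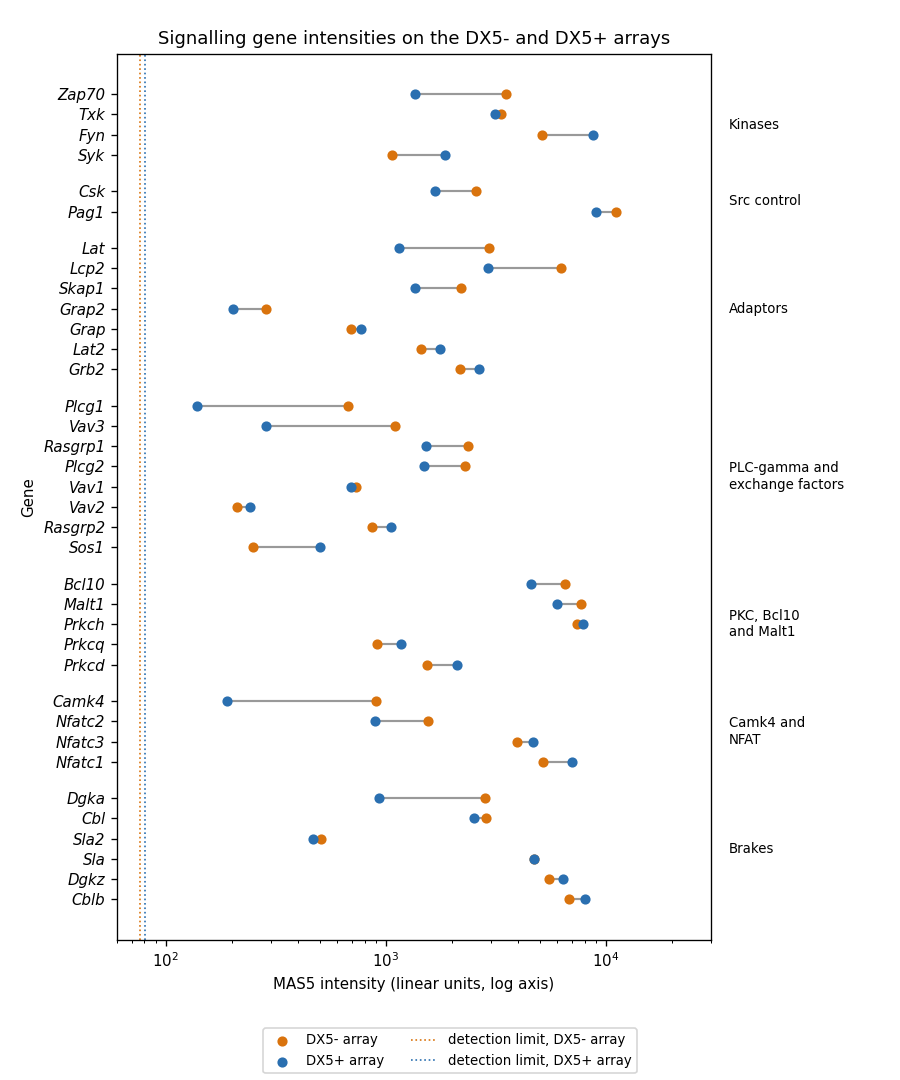
MAS5 intensity (log axis) of the 36 signalling genes on the DX5- array (orange) and the DX5+ array (blue), 1 value per array, grouped by role, with dotted lines at the detection limits of 76.05 and 80.1. The longest gaps belong to Plcg1, Camk4, Vav3 and Dgka, all with the DX5- value on the right, and most other pairs of points lie close together.

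**Figure D2:**
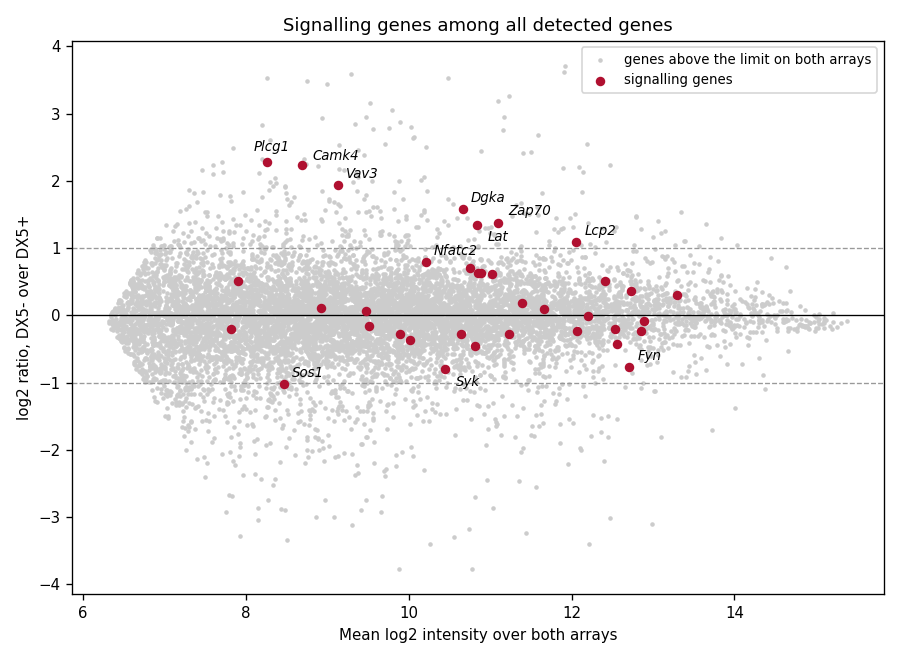
The log2 ratio of DX5- over DX5+ against the mean log2 intensity for 9407 genes above the limit on both arrays (grey), with the 36 signalling genes in red and dashed lines at 2-fold. The 7 genes past the upper line are spread over the intensity range, with Plcg1 and Camk4 among dim genes and Lcp2 among bright ones.

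Among the kinases, Zap70 read higher and Syk and Fyn lower in DX5- cells. Zap70, the ITAM-binding kinase of T and NK cells, read 3515 units in DX5- cells and 1362 in DX5+ cells, a 2.58-fold difference (log2 ratio 1.37). Its other probe sets gave smaller ratios, 1333 against 831 (0.68) and 605 against 480 (0.33), and the mean of all 3 was 0.79, short of 2-fold. All 3 Zap70 probe sets thus read higher in DX5- cells, by sizes from 1.26-fold to 2.58-fold.

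Syk, the relative of ZAP-70 that is also the main ITAM kinase of B and myeloid cells, read 1061 units in DX5- cells and 1847 in DX5+ cells, 1.74-fold lower in DX5- cells. Its 4 probe sets had log2 ratios from -0.80 to -0.29, all below 0. Zap70 and Syk therefore lay on opposite sides, 2.17 log2 units apart. Fyn, a Src family kinase that phosphorylates ITAMs and binds SAP family adaptors, read 5129 against 8696 (1.70-fold lower), and its second probe set read 2577 against 5497 (2.13-fold lower). Txk, a Tec family kinase that acts on phospholipase C-gamma, read 3348 against 3134 (log2 ratio 0.10).

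Both genes that restrain Src kinases read somewhat higher in DX5- cells, within 2-fold. Csk, which phosphorylates the inhibitory tail tyrosine of Src family kinases, read 2564 against 1676 (1.53-fold higher). Pag1, the membrane adaptor that brings Csk to lipid rafts, read 11154 against 9005 (1.24-fold higher). The 4 Pag1 probe sets had log2 ratios from 0.31 to 1.09, all above 0, and the chosen one had the smallest.

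The adaptors that carry the LAT signalling complex read higher in DX5- cells, and the Grb2-like linkers hardly differed. Lat, the transmembrane scaffold phosphorylated by ZAP-70, read 2933 units in DX5- cells and 1150 in DX5+ cells, a 2.55-fold difference from its only probe set. Lcp2, which encodes SLP-76, the cytosolic partner of LAT, read 6228 against 2909 (2.14-fold higher). The second Lcp2 probe set was above the limit in DX5- cells only, at 201 against 50.2, so it too read higher there.

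Skap1, an adaptor that links receptor signalling to integrin adhesion, read 2200 against 1349 (1.63-fold higher), and its 3 probe sets lay between 0.71 and 1.14 on the log2 scale. Grap2, which encodes Gads, the linker between LAT and SLP-76, read 286 against 201 (log2 ratio 0.51). Grap, a Grb2-like adaptor, read 694 against 771 (log2 ratio -0.15, and 0.07 with scaling to the spike-in controls). Grb2, the linker that brings Sos to phosphorylated receptors and LAT, read 2179 against 2651 (-0.28), and its second probe set had a ratio of 0.12. Lat2, the LAT-like adaptor of B, mast and NK cells, read 1447 against 1753 (-0.28). Lat and Lat2 differed by 1.63 log2 units in their ratios.

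To show the sequence in front of genes that differed, the promoter windows of the members at least 2-fold apart with a single start listed in RefSeq (GRCm38.p6) are printed here, 250 bases before the start to 50 after it. They are those of Lat (chr7:126369519-126369818, minus strand), Lcp2 (chr11:34046678-34046977, plus strand), Plcg1 (chr2:160731060-160731359, plus strand) and Sos1 (chr17:80480404-80480703, minus strand). Each is written 5′ to 3′ along the gene. Capitals mark matches on either strand to 4 short motifs: TGTGGT (the core bound by Runx factors), AGGAAG (an ETS core), GGTGTGA (a T-box core, the family of Eomes and T-bet) and CAGNTG (an E box), so a match on the other strand appears as its reverse complement.
Lat: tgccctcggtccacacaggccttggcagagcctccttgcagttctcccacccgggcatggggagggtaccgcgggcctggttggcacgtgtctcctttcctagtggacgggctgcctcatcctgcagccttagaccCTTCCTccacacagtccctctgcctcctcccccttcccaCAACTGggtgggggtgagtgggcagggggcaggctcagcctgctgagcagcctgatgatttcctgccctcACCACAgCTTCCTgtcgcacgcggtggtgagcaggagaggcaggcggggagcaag
Lcp2: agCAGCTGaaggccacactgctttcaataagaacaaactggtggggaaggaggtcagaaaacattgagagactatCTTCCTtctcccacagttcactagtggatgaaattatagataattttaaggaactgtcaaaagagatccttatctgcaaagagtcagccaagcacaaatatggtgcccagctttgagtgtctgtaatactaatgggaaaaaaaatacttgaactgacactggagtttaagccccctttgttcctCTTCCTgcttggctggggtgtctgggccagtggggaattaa
Plcg1: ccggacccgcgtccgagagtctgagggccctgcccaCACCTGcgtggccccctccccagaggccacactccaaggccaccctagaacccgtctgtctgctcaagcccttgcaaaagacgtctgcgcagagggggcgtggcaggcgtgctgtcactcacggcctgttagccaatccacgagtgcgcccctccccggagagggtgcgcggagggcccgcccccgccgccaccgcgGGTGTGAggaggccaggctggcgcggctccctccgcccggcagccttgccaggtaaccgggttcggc
Sos1: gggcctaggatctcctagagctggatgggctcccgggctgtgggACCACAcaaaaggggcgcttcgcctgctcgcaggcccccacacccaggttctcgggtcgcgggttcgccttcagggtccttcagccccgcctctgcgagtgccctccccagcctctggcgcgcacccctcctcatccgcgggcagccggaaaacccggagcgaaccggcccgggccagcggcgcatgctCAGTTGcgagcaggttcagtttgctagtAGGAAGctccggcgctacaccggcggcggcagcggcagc

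The Lat window held 1 Runx, 2 ETS and 1 E box match, and the Lcp2 window 2 ETS and 1 E box match. In the Plcg1 window there were 1 T-box and 1 E box match, and in the Sos1 window 1 match each to the Runx, ETS and E box letters. No motif was thus common to Lat, Lcp2 and Plcg1 alone: the E box, the only one found in all 4 windows, also stood before Sos1. The windows of Zap70, Camk4, Vav3 and Dgka are not among these, and the probe sets of Sos1 pointed both ways. RefSeq windows were found for 27 of the 36 members (43 windows), so some members count more than once and the shares below are of windows, not genes. The ETS letters stood in 24 of these (55.8%, against 35.4% of all 32851 windows), the E box in 24 (55.8% against 51.4%), the Runx letters in 5 (11.6% against 16.8%) and the T-box letters in 2 (4.65% against 3.98%). A match is a description of letters and does not show binding.

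In the phospholipase C-gamma and Vav families 1 member each, Plcg1 and Vav3, read at least 2-fold higher in DX5- cells. Plcg1, the isoform of phospholipase C-gamma that T cells use most, read 672 units in DX5- cells and 139 in DX5+ cells, 4.84-fold higher (log2 ratio 2.28). Of its other probe sets, one was above the limit in DX5- cells only, at 83.4 against 58.7, and the other was below the limit on both arrays. The Plcg1 difference thus rests on 1 probe set, whose DX5+ value was not far above the limit, and the mean over its detected probe sets was 1.17. Plcg2, the isoform prominent in B cells, myeloid cells and NK cells, read 2293 against 1485 (1.54-fold higher).

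Vav3, a guanine nucleotide exchange factor phosphorylated after receptor engagement, read 1098 units in DX5- cells and 286 in DX5+ cells (3.84-fold higher), and its second detected probe set read 745 against 278 (2.68-fold higher). Vav1, the family member of blood cells, read 732 against 696 (log2 ratio 0.07), although its second probe set had a ratio of -0.47. Vav2, the broadly expressed member, read 210 against 241 (-0.20, and 0.02 with spike-in scaling). The Vav3 ratio was 1.87 log2 units above that of Vav1 and 2.14 above that of Vav2.

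Of the Ras family exchange factors, Rasgrp1 read higher in DX5- cells, while the probe sets of Rasgrp2 and of Sos1 disagreed in direction. Rasgrp1, activated by the diacylglycerol that phospholipase C-gamma makes, read 2363 against 1524 (1.55-fold higher in DX5- cells). Rasgrp2, a related factor that acts on Rap1 and is abundant in platelets, read 865 against 1052 (-0.28), and its 4 probe sets ranged from -0.52 to 0.28. Sos1, the exchange factor brought in by Grb2, read 249 against 503, 2.02-fold lower in DX5- cells. Another Sos1 probe set read 196 against 183 (log2 ratio 0.10) and one above the limit in DX5- cells only read 109 against 67.8, so the probe sets pointed both ways. The Sos1 ratio was -0.94 to -0.79 with 4 other scalings of the arrays and -0.16 as a mean over detected probe sets, each short of 2-fold.

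Protein kinase C and the Bcl10-Malt1 complex, which leads to NF-kappaB, were all within 1.5-fold. Prkcq, the theta isoform of T cell activation, read 910 against 1168 (log2 ratio -0.36). Prkcd, the delta isoform, read 1540 against 2115 (-0.46), with a second probe set at -0.41. Prkch, the eta isoform, read 7376 against 7821 (-0.08, and 0.13 with spike-in scaling). Bcl10 read 6497 against 4560 (0.51), and its 4 probe sets were all above 0, from 0.37 to 1.02. Malt1, the protease of the complex, read 7729 against 6013 (0.36), but its other probe sets had ratios of -0.03 and -0.44.

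Of the calcium-responsive genes Camk4 stood far apart, and the NFAT genes did not move as one. Camk4, a calcium and calmodulin-dependent kinase of T cells and neurons, read 899 units in DX5- cells and 190 in DX5+ cells, 4.73-fold higher (log2 ratio 2.24). A pair of other Camk4 probe sets were just above the limit in DX5- cells only, at 98.4 against 54.2 and 95.3 against 4.7, and another pair were below the limit on both arrays. With the bounds of these dim probe sets averaged in, the Camk4 ratio was 0.93, short of 2-fold.

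Nfatc2 (NFAT1) read 1558 against 896, 1.74-fold higher in DX5- cells, and its second probe set above both limits had a ratio of 0.17. Another Nfatc2 probe set was above the limit in DX5+ cells only, at 33.6 against 82.1, and the mean over the detected probe sets was 0.29. Nfatc1 (NFAT2) read 5188 against 6989 (-0.43), whereas its 4 other probe sets ran from 0.00 to 0.47. The mean over all 5 was 0.12, so no direction can be given for Nfatc1. Nfatc3 (NFAT4) read 3950 against 4660 (-0.24), with a second probe set at -0.29.

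Among the genes that dampen receptor signals, Dgka was the exception in a group that hardly differed. Dgka, a kinase that converts diacylglycerol, the activator of Rasgrp1 and protein kinase C, read 2809 units in DX5- cells and 934 in DX5+ cells, 3.01-fold higher from its only probe set. Dgkz, the related zeta isoform, read 5529 against 6359 (-0.20, and 0.02 with spike-in scaling). Cbl and Cblb, ubiquitin ligases that mark receptor and kinase complexes for degradation, read 2861 against 2525 (0.18) and 6819 against 8049 (-0.24). The other Cblb probe sets had ratios of 0.13 and 0.20, and the mean over all 3 was 0.03, so no direction can be given for Cblb. Sla and Sla2, Src-like adaptors that lower the surface level of antigen receptors, read 4700 against 4729 (-0.01) and 506 against 467 (0.12). The other Sla2 probe set had a ratio of -0.12 and the mean was -0.001, so no direction can be given for Sla2. The sign of Sla changed with spike-in scaling, where its ratio was 0.21.

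Within several families the ratios of related genes lay apart on these arrays. The gap was 2.17 log2 units for Zap70 over Syk, 1.79 for Dgka over Dgkz, 1.65 for Plcg1 over Plcg2 and 1.63 for Lat over Lat2; as means over detected probe sets these gaps were 1.43, 1.75, 0.54 and 1.63. Between the chosen probe sets the gap was 1.23 for Nfatc2 over Nfatc1, 0.91 for Rasgrp1 over Rasgrp2, 0.12 for Sla2 over Sla and 0.10 for Prkcq over Prkcd. As means over detected probe sets these gaps were 0.17, 0.61, 0.18 and 0.07. Without replicate arrays none of these gaps was tested.

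**Figure D3:**
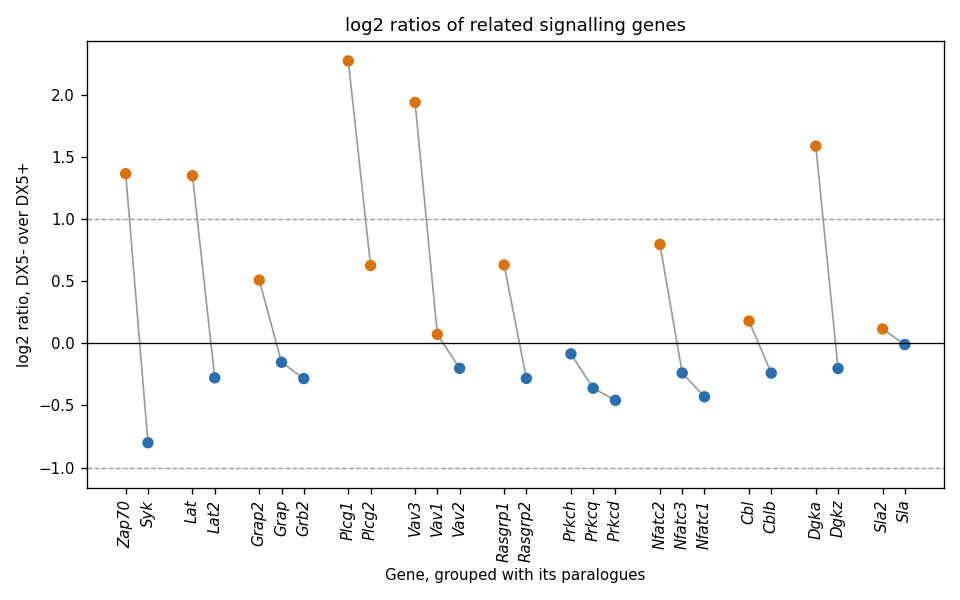
The log2 ratio of DX5- over DX5+ for related signalling genes, 1 point per gene (orange above 0, blue below 0), joined within families and ordered by ratio, with dashed lines at 2-fold. Zap70, Lat, Plcg1, Vav3 and Dgka lie above the upper line while every relative shown beside them lies below it.

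**Figure D4:**
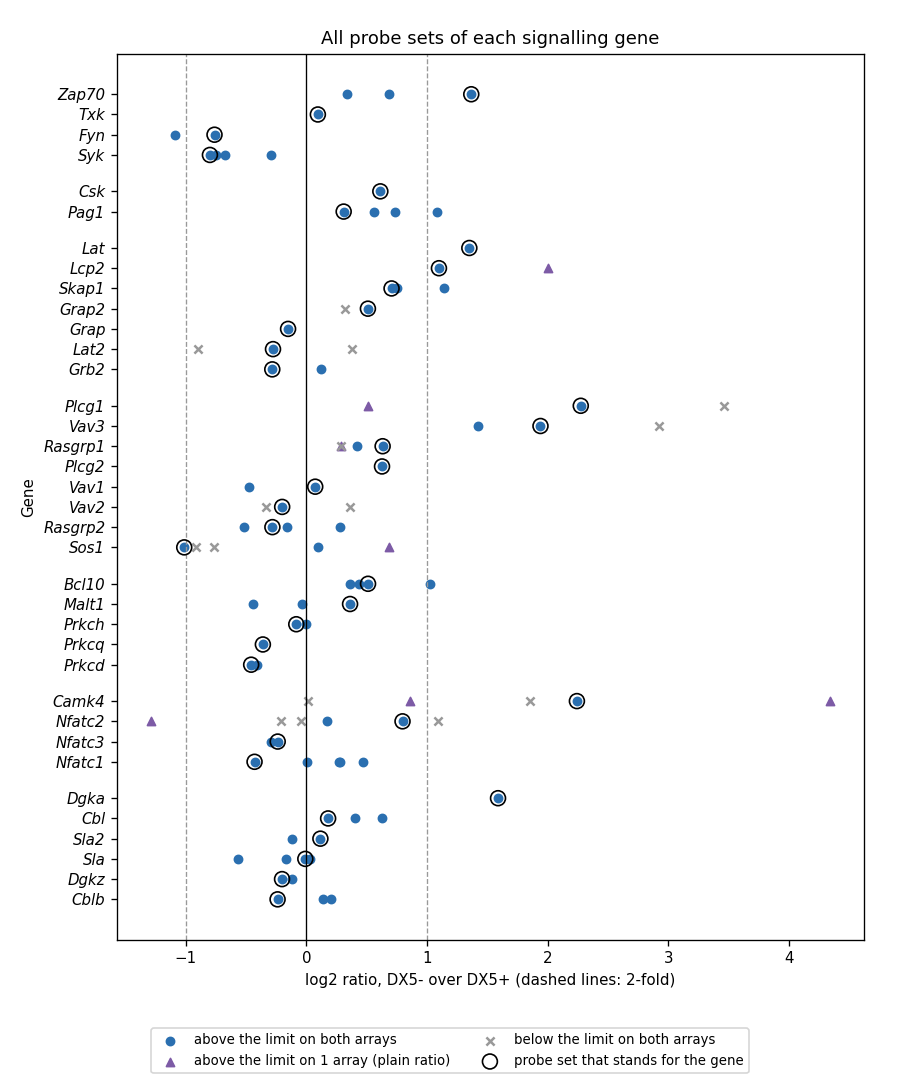
The log2 ratio of DX5- over DX5+ for all 99 probe sets of the 36 genes: 77 above the limit on both arrays (circles), 7 above it on 1 array (triangles, plain ratio) and 15 below it on both (crosses); rings mark the probe set that stands for the gene. Of 23 genes with at least 2 circles, 14 have all of them on the same side of 0 and 9 on both sides.

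The other genes of the pathway showed fewer large ratios. Of 85 listed genes 74 had a probe set of their own and 70 were detected, all of them on both arrays. In DX5- cells 4 of the 70 (5.71%) were past 2-fold on the higher side and 1 (1.43%) on the lower, near or below the shares of 3.73% and 5.13% over all genes. Their median log2 ratio was 0.05.

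Evl, an Ena/VASP protein of the actin cytoskeleton, read 4495 against 1436 (3.13-fold higher in DX5- cells). Ppp3cc, a catalytic subunit of calcineurin, read 2013 against 681 (2.96-fold higher), and Ppp3cb, another catalytic subunit, 2349 against 1439 (1.63-fold higher). The calcineurin genes Ppp3ca and Ppp3r1 read 2150 against 2069 and 3345 against 2874. Ubash3a, a phosphatase-like regulator of T cell receptor signals, read 223 against 88.5 (2.52-fold higher), the latter close to the limit. Itpr2, a calcium release channel opened by inositol trisphosphate, read 893 against 433 (2.06-fold higher). Gab2, a docking adaptor, read 213 against 501, 2.36-fold lower in DX5- cells. The genes past 2-fold thus came from the calcium branch (2 of 17 detected), the other adaptors (2 of 17) and the phosphatases and other brakes (1 of 17). Only the chosen probe set is given for these genes. Itpr2, just past 2-fold, had 5 detected probe sets, Evl 4, Gab2 3, and Ppp3cc and Ubash3a 2 each.

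None of 9 detected kinases outside the list and none of 10 detected genes of the Ras-ERK branch was 2-fold apart. Prkcb and Ptk2b read 3738 against 4518 and 2861 against 3065. Sos2 and Rasa1 read 4601 against 5127 and 4020 against 4388. In the remaining branches the 2 brightest genes of each were within 1.5-fold: the adaptors Sh2d2a (11414 against 12308) and Wipf1 (5209 against 6973), and the phosphatases Ptprc (29891 against 32390) and Ptpn22 (17330 against 15445). Itpkb and Orai1 of the calcium branch read 5878 against 4028 and 4231 against 3072.

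**Figure D5:**
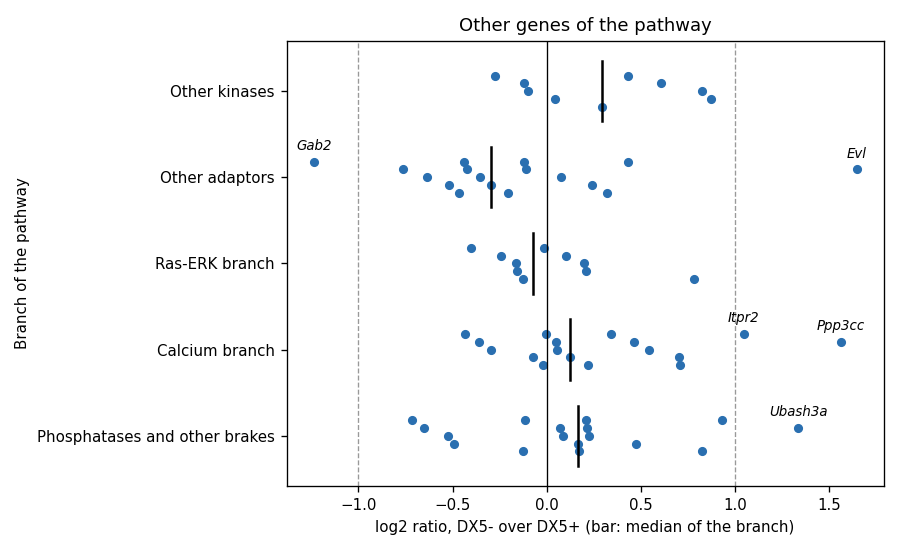
The log2 ratio of DX5- over DX5+ for 70 other genes of the pathway in 5 branches, 1 point per gene, with a bar at each branch median and dashed lines at 2-fold. Evl, Ppp3cc, Itpr2 and Ubash3a lie past the upper line and Gab2 past the lower one; all other points lie between them.

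Markers of other cell types also differed between the arrays, and several of the genes above are used in those cells. Of 13 detected T cell markers 6 read at least 2-fold higher in DX5- cells. They were Cd3g (14036 against 1072), Cd3d (2607 against 782), Bcl11b (1018 against 218), Cd3e, Cd8a and Trat1. Another 2, Cd247 and Lef1, read at least 2-fold lower. Of the 13 log2 ratios 9 lay above 0 and 4 below, with a median of 0.93. The summed level of the T cell list was 29587 units in DX5- cells and 16909 in DX5+ cells. Cd4 was below the limit on both arrays, and Cd5 read 155 against 104 (1.49-fold higher). Without Cd3g the sums were 15552 and 15838, so the difference between the sums came from that gene. Such sums follow the brightest genes, and Cd28 (7668 against 8442) was the brightest of the rest. Among members prominent in T cells, Zap70, Lat, Lcp2, Plcg1, Camk4, Dgka, Skap1, Rasgrp1, Grap2 and Nfatc2 read higher in DX5- cells. Fyn and Prkcq read lower, and Txk hardly differed. These members were picked with their values known, and some, such as Zap70, are genes of NK cells too. Members left out of this choice include Vav1 (0.07), Prkch (-0.08), Dgkz (-0.20) and Nfatc3 (-0.24), which hardly differed. Csk and Vav3 were also left out and read higher. All 36 members together had 20 ratios above 0 and 16 below.

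Markers of macrophages and monocytes, neutrophils and platelets read mostly lower in DX5- cells. Those of B cells differed little, with 7 of 8 detected ratios above 0. Of members prominent in such cells, Syk, Prkcd and Lat2 read lower in DX5- cells and Plcg2 higher (log2 ratio 0.63). The Lat2 ratio was -0.28, and -0.06 with spike-in scaling. Rasgrp2 had no clear direction, with its 4 probe sets between -0.52 and 0.28. These members too were picked with their values known. Of 7 detected macrophage and monocyte markers 5 read at least 2-fold lower in DX5- cells (summed level 2711 against 8067), with Clec4f, C1qa, C1qb, C1qc, Timd4, Cd163 and Marco below the limit on both arrays. Of 8 detected platelet markers 7 read at least 2-fold lower (1309.6 against 5987), and of 6 neutrophil markers 3 did (3918 against 9799.7), with Elane, Mpo and Cxcr2 below both limits. Of 5 detected basophil and mast cell markers 1 read at least 2-fold lower (2470.0 against 3378), with Fcer1a and Ms4a2 below both limits. Among 7 dendritic cell markers the count was 1 (14750.2 against 16735), with Xcr1 below both limits. The 8 detected B cell markers were all within 1.5-fold (6055 against 5326), with Cd79a and Cr2 below both limits. Of 11 NK cell markers, all detected on both arrays, Eomes and Prf1 read at least 2-fold lower in DX5- cells and the other 9 were within 2-fold (148968 against 162448). The part of any of these cell types in the ratios of the signalling genes was not tested.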

How the data were processed

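Values were the MAS5 intensities that the authors deposited, 1 linear number for each of 45101 probe sets on each array; MAS5 is named in the submitters' processing notes, with neither version nor settings. MAS5 subtracts mismatch signal, so dim values are imprecise. Of 35890 annotated probe sets 932 had several symbols and were not used; 34945 outside the array's controls had 1 symbol, and 34741 of these matched the RefSeq table of GRCm38.p6. Ratios were log2 intensity in DX5- minus DX5+, with no offset. The detection limit came from 150 probe sets of olfactory, vomeronasal, taste receptor, keratin-associated, lens crystallin and opsin genes. A value below it on 1 array was set to the limit; such ratios are bounds. The steps were tested on simulated data (Python 3.11.15, numpy 2.4.6, pandas 2.3.3).

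With 1 array per group no test was made. All 36 members with a probe set are named. Of the other pathway genes, those at least 2-fold apart and the 2 brightest per branch are named; other genes were named after their values were seen. Members and lists were chosen with earlier results of these data known.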

Additional observations from a re-analysis of the deposited data

How the results depend on the processing

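With 1 array per group no replicate could be left out. No paired analysis was possible because each population had a single array. A total of 11 alternatives were run, 10 planned and 1 added after seeing the data, in which the probe sets of the widely expressed Crybg genes were kept behind the detection limit. No member past 2-fold changed sign under any of them. The count of members at least 2-fold higher stayed at 7 or 8 except for the mean over detected probe sets, where it was 5 and Zap70 (0.79) and Camk4 (0.93) fell short. The count of members at least 2-fold lower, 1 as deposited, was 0 with median centring, quantile normalization, lowess centring, spike-in scaling, a pseudocount of 50 and the mean over detected probe sets. The count of other pathway genes at least 2-fold higher, 4 as deposited, was 8 with spike-in scaling and 2 with the pseudocount; the count at least 2-fold lower, 1 as deposited, was 2 with the mean over probe sets and 2 without _x_at, _s_at and _a_at probe sets. The cause of these moves was not tested.

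Scaling shifted all genes together, by a median of 0.15 with median centring and 0.22 with spike-in scaling. The share of all detected genes past 2-fold that read higher in DX5- cells was 40.2% as deposited (405 higher, 602 lower), 56.8% with median centring and 64.3% with spike-in scaling. The member median ranged from 0.064 to 0.32, and relative to the median of all genes from 0.092 to 0.33. Of the 36 members 5 changed sign with a scaling: Grap, Vav2, Prkch, Dgkz and Sla. Intensities near the limits, such as those of Plcg1 and Camk4 in DX5+ cells, are the least precise.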

Other observations

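Receptor chains that feed this pathway, named after their values were seen, differed in both directions. Fcer1g, the Fc receptor gamma chain, read 22233 units in DX5- cells and 22312 in DX5+ cells, and Tyrobp, which encodes the ITAM adaptor DAP12, read 22905 against 23420. Hcst, which encodes DAP10, a chain that signals through phosphoinositide 3-kinase in place of ZAP-70 or Syk, read 7083 against 4890 (log2 ratio 0.53). Cd247, the zeta chain on which ZAP-70 docks, read 1144 against 2425, 2.12-fold lower in DX5- cells. The CD3 chains, which carry ITAMs as well, read higher in DX5- cells, with log2 ratios of 3.71 for Cd3g, 2.17 for Cd3e and 1.74 for Cd3d, although the DX5+ value of Cd3e (83.1) was close to the limit. Of the ITAM chains named here, Cd247 by its chosen probe set thus lay on the side opposite to Zap70 and the 3 CD3 chains on the same side. Cd247 had 3 detected probe sets, and only the chosen probe set is given. Fcer1g and Tyrobp hardly differed (log2 ratios -0.005 and -0.032).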
